A study of Drosophila melanogaster with 19 samples.

Results

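Zinc enters the cytosol through carriers of the ZIP family and leaves it, for storage, secretion or export, through carriers of the ZnT family. The fruit fly genome holds genes of both families, and several of them are best known from the gut and the Malpighian tubules, the fly's kidney, where they take up dietary zinc or excrete it. Free zinc is kept low by metallothioneins, small metal-binding proteins whose genes are switched on by the metal-responsive factor MTF-1.

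The 10 genes described here are 7 ZIP genes (Zip102B, Zip71B, Zip88E, Zip89B, Zip99C, foi and Catsup) and 3 ZnT genes (ZnT35C, ZnT63C and ZnT86D). They are 10 of the 11982 genes with a probe set of their own on the array, and each was represented by 1 of 18769 probe sets. Zip102B was chosen by its measured levels in these arrays, namely a loss with Ase and with Ac+Sens and a normal level with Ase+m3. Its values are therefore given as a description without a test, and the tests concern the other 9 genes.

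The tissue was the notum, the part of the dorsal thorax that forms the sensory bristles, taken from Drosophila melanogaster pupae 16 h after puparium formation. Every group carried the driver sca-Gal4 and the temperature-sensitive repressor tub-Gal80ts, was raised at 18 °C and spent the last 6 h before dissection at 29 °C. The groups differed in the transgene. They were UAS-Ac (the proneural factor Achaete, 2 arrays), UAS-Sens (the zinc finger factor Senseless, 3 arrays) and UAS-Ac with UAS-Sens (Ac+Sens, 3 arrays). The others were UAS-Ase (the precursor factor Asense, 3 arrays), UAS-E(spl)m3-HLH (m3, a repressor made in response to Notch signalling, 3 arrays), UAS-Ase with UAS-E(spl)m3-HLH (Ase+m3, 2 arrays) and the control UAS-GFPnls (GFP, 3 arrays). For each array 8 to 12 notums were pooled, in which only the cells with sca-Gal4 activity express the transgene. The labels speak of biological replicates, and these 19 arrays were the ones analysed here. In such pools fewer cells of a type and less RNA per cell cannot be told apart.

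Levels are log2 probe set signals, differences between groups are log2 differences, and levels of different probe sets were not compared beyond their rank within an array. The 8 notum markers pnr, ush, tup, ara, caup, mirr, eyg and sr were measured on all 19 arrays, at 6.52 to 10.2. On 4 arrays, replicate 3 of Sens, Ac+Sens, Ase and m3, 60.3% to 60.6% of probe sets were listed at 0 and were treated as missing. Ase+m3 replicate 2 was least like the other arrays, with a median rank correlation of 0.890, where the other 18 had 0.964 to 0.987. The deviations of some arrays followed gene length. Their rank correlation with it was −0.40 on GFP replicate 2, −0.43 on Ase+m3 replicate 2 and −0.45 on Ac+Sens replicate 3. It was 0.43 on Ase replicate 3 and 0.38 on Sens replicate 3, and between −0.27 and 0.23 on the rest. The cause of this trend was not tested. The array labelled Sens replicate 1 went against its label. It had sens at 7.38, against 10.76 and 10.75 on the other Sens arrays, and the proneural gene sc at 10.63, against 7.17 and 6.84 there. The Ac arrays had sens at 7.32 and 6.92 and sc at 10.37 and 10.42, close to the levels of that array. It was kept under its label, what it holds was not tested, and the Sens values of Zip102B are given with and without it.

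Zip102B, which lies on chromosome 4 with no other gene over it and is the fly relative of the mammalian Golgi carrier ZIP9, was near the bottom of its range in Ase and Ac+Sens. Its level was 4.09, 4.16 and 4.04 on the Ase arrays and 4.29, 4.59 and 4.07 on the Ac+Sens arrays, against 7.81, 7.69 and 7.81 on the GFP arrays. The 6 arrays with these transgenes lay far below all 3 GFP arrays, and Ase and Ac+Sens overlapped with each other. The mean was 4.09 ± 0.06 (SD, n = 3) in Ase, 4.31 ± 0.27 (SD, n = 3) in Ac+Sens and 7.77 ± 0.07 (SD, n = 3) in GFP. On the linear scale Ase stood at 7.83% and Ac+Sens at 9.12% of GFP, which are upper limits if the signal of about 4 is background.

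In relation to the other probe sets of the same array, Zip102B also moved down. On the Ase arrays without zeros, 48.5% and 49.2% of probe sets were lower than Zip102B, against 75.8% to 76.0% on the GFP arrays. On Ase replicate 3, where 60.3% of probe sets were listed at 0, 60.4% were lower, so that Zip102B was among the dimmest probe sets to which that array gives a value. Detection calls were not used here, and whether the signal of about 4 lies above background was not tested.

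With either single factor of the pair Ac+Sens, Zip102B lost much less. Its level was 6.97 and 6.67 in Ac, below all 3 GFP arrays and above all Ac+Sens arrays, which corresponds to 57.7% and 46.6% of the GFP mean. It was 6.60, 7.91 and 7.93 in Sens. The low Sens value came from the array labelled Sens replicate 1, at 44.4% of the GFP mean and just under the Ac arrays, and the other Sens arrays were at 110% and 112%. The difference from GFP was −0.95 for Ac and −0.29 for Sens, and the Sens difference was 0.15 without the array labelled Sens replicate 1. The difference of Ac+Sens was −2.51 from Ac and −3.16 from Sens, or −3.60 from Sens without that array. Ac+Sens was lower than the sum of the single changes would give, since the interaction, the Ac+Sens difference from Ac less the Sens difference from GFP, was −2.21, or −2.66 without the array labelled Sens replicate 1.

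With Ase and m3 together, Zip102B was at the GFP level. The level was 7.92 and 7.68 in Ase+m3, against 4.09, 4.16 and 4.04 in Ase alone, 7.84, 7.89 and 8.10 in m3 alone, and 7.81, 7.69 and 7.81 in GFP. Ase+m3 overlapped with GFP, and m3 lay just above GFP on all 3 arrays. The difference of Ase+m3 was 3.71 from Ase, 0.03 from GFP and −0.14 from m3. The m3 difference from GFP, 0.18, turned to −1.17 under the quantile normalization described with the limits, which also moved Ase+m3 against m3 to 1.297, Sens against GFP to −1.55 and the interaction of Ac and Sens to −1.29. With all arrays, the order of the group means, low to high, was Ase, Ac+Sens, Ac, Sens, GFP, Ase+m3 and m3. Ase and Ac+Sens, Ac and Sens, and Sens, GFP, Ase+m3 and m3 were neighbours whose arrays overlapped, except that no m3 array overlapped with GFP. Without the array labelled Sens replicate 1, the Sens arrays, at 7.91 and 7.93, both lay between the Ase+m3 and m3 means. They then overlapped with neither Ac nor GFP.

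**Figure D1:**
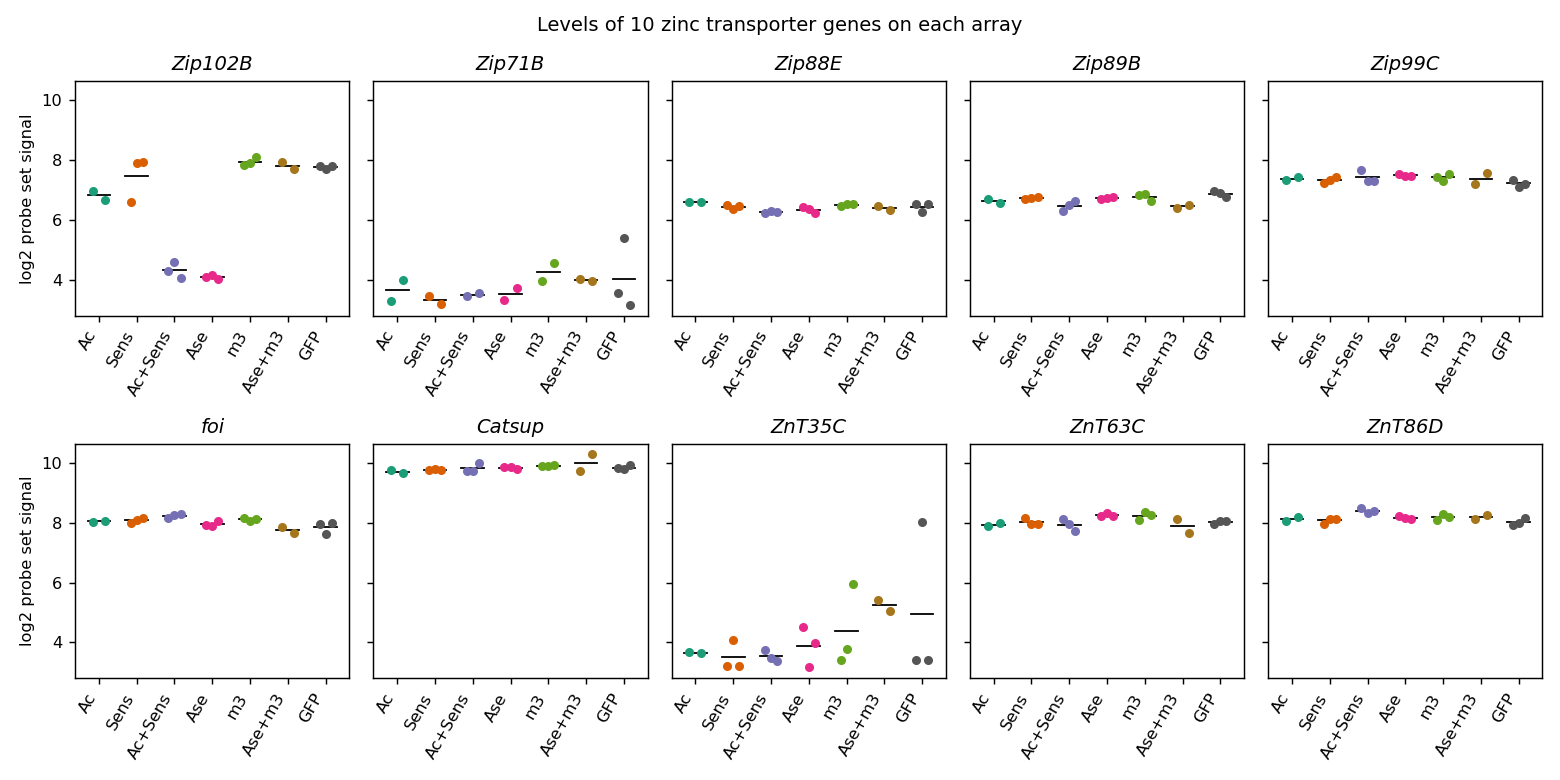
Level of each of the 10 zinc transporter genes on every array (log2 probe set signal, vertical axis) by group (horizontal axis); each point is 1 array and each bar the group mean. Zip102B is near 4 in Ac+Sens and Ase and near 8 in m3, Ase+m3 and GFP, while the other ZIP and ZnT genes, apart from Zip71B and ZnT35C, stay within narrow bands.

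Markers of the bristle precursors moved with the Zip102B levels in part. The log2 of the summed signals of the 7 precursor markers sens, phyl, neur, spdo, cpo, sc and edl, of which sens and sc respond to the transgenes themselves, was 11.5 to 11.6 in Ac, 11.6 to 11.7 in Sens (11.72 to 11.73 without the array labelled Sens replicate 1) and 12.2 to 12.6 in Ac+Sens. It was 10.83 to 11.01 in Ase, 10.5 to 10.7 in m3 and 10.5 to 10.7 in Ase+m3, against 10.4 to 10.6 in GFP. The Ac and Sens sums lay above the Ase sum through sc and sens. Without these 2 genes the sum of the other 5 was highest in Ac+Sens, at 10.91 to 11.03, and next in Ase, at 10.56 to 10.71. It was 10.37 to 10.58 in Ac, 10.41 to 10.58 in Sens, 10.30 to 10.45 in m3 and 10.21 to 10.52 in Ase+m3, against 10.07 to 10.25 in GFP. The 2 groups with the lowest Zip102B thus had the highest sums, although the Ase arrays overlapped with those of Ac and Sens. Of single markers, spdo, a regulator of Notch in asymmetric division, averaged 7.01 in Ac+Sens, 6.30 in Ase, 6.13 in Ac, 6.09 in Sens, 5.75 in m3 and 5.72 in Ase+m3, against 5.68 in GFP. The marker phyl, an adaptor for protein degradation in precursors, averaged 7.75 in Ac+Sens, 7.61 in Ase, 6.78 in Ac and 6.69 in Sens, against 5.42 in GFP, but it was also at 7.58 in Ase+m3, where Zip102B was at the GFP level. The marker edl was at 8.99, 8.89 and 8.91 in Ase and 8.98, 9.21 and 8.97 in Ac+Sens, above every array of the other groups. For neur the Ase arrays, at 9.22, 9.15 and 9.44, overlapped with the Sens arrays, at 8.94, 9.43 and 9.46. The marker cpo did not follow Zip102B. It overlapped between Ase (7.92, 7.73 and 7.82), m3 (7.84, 8.00 and 8.19) and GFP (7.99, 7.38 and 7.74). The part of the precursors in the Zip102B levels was not tested.

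Markers of other tissues overlapped between Ase, Ac+Sens and GFP for fat body (4 of 6 markers measured on all arrays, 12.5 to 13.1, 12.1 to 13.4 and 12.0 to 12.8) and trachea (2 of 4, 9.32 to 9.80, 8.59 to 9.78 and 9.24 to 9.96). The haemocyte sum (3 of 6) was 9.28 to 9.42 in Ase and 9.21 to 10.1 in Ac+Sens, against 9.04 to 9.06 in GFP. The muscle sum (6 of 8) was 12.1 to 12.3 in Ase and 11.9 to 12.1 in Ac+Sens, against 11.9 to 12.1 in GFP. The part of these tissues in the Zip102B levels was not tested.

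No other transporter gene had a loss of that kind, but Zip71B and ZnT35C had little room for one. On GFP replicates 1 and 3, Zip71B was at 3.55 and 3.15 and ZnT35C at 3.40 and 3.41. Those values were already under the Zip102B levels in Ase. In Ase, none of the other 9 genes passed the test of limma at an adjusted p under 0.05, where 1.24% of all probe sets did. At an unadjusted p under 0.05 there was 1 of the 9, where 1786 of all 11982 genes had one. Of the other 9, 4 were higher in Ase than in GFP, where 8222 of 11982 genes were. The median difference was −0.01, and over all genes the median was 0.09. In Ac+Sens again 0 of 9 passed, where 0.773% of probe sets passed. At an unadjusted p under 0.05 there were 3 of 9, where 1454 of 11982 genes had one. There the median difference was −0.09, against 0.00 over all genes, and 3 of 9 were above 0, where 6075 of 11982 genes were. Without GFP replicate 2 the counts above 0 were 6 of 9 in Ase and 5 of 9 in Ac+Sens, with medians of 0.13 and 0.14. For 7 of the 9 genes the 95% intervals of the difference were narrow. In Ase they reached no lower than −0.35 (Zip89B) and no higher than 0.51 (Zip99C), and in Ac+Sens no lower than −0.61 (Zip89B) and no higher than 0.59 (foi). The intervals of Zip71B (−1.59 to 0.59 in Ase, −1.62 to 0.56 in Ac+Sens) and ZnT35C (−3.01 to 0.88 in Ase, −3.35 to 0.54 in Ac+Sens) were wide. The Zip102B differences of −3.67 in Ase and −3.45 in Ac+Sens lay below all of them. Since Zip102B was chosen for these losses, that is a description and no test.

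**Figure D2:**
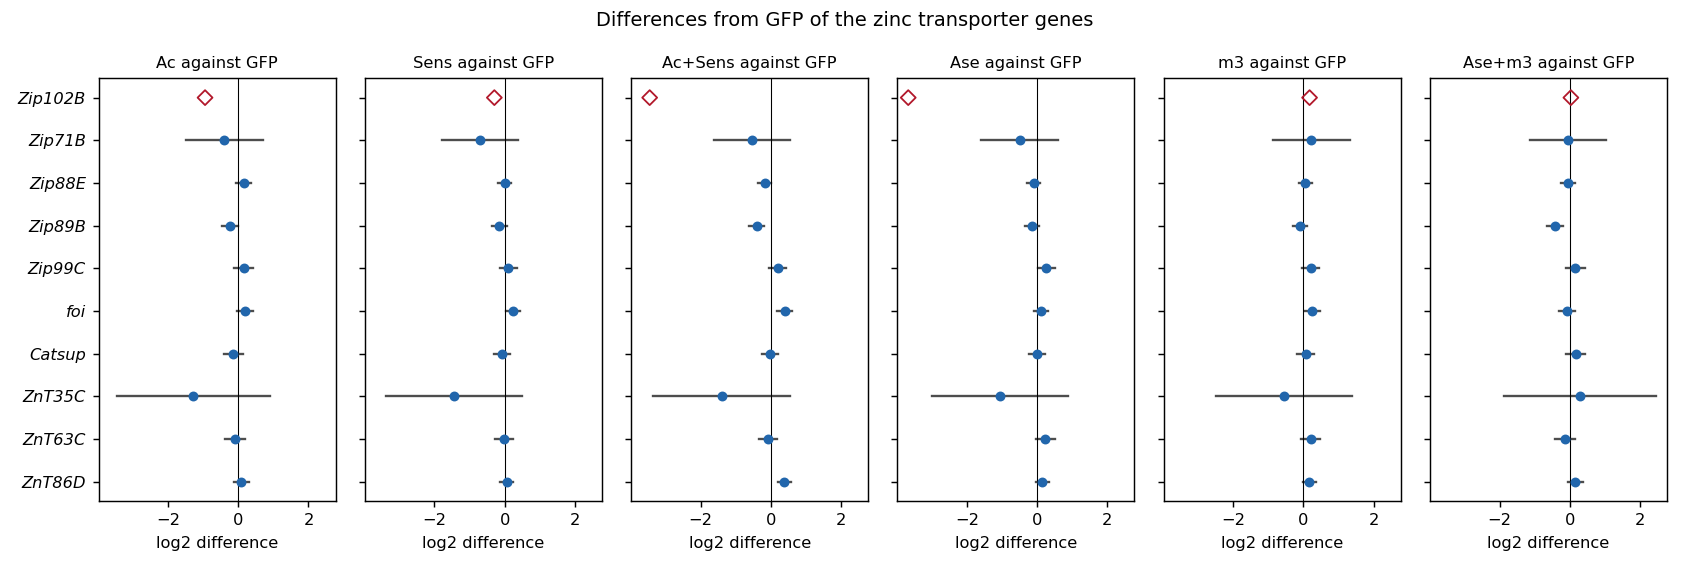
Log2 difference from GFP (horizontal axis) of each zinc transporter gene (rows) in the 6 other groups (panels); circles are the 9 genes tested with their 95% intervals from limma, and open diamonds are Zip102B, shown without interval because it was chosen for these values. Zip102B stands at −3.45 in Ac+Sens and −3.67 in Ase, the losses for which it was chosen.

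Among the ZIP genes, Zip89B, which takes up zinc at the gut surface, was the one transporter with a call in any of the 12 comparisons. Its level was 6.40 and 6.50 in Ase+m3, against 6.97, 6.89 and 6.77 in GFP, and the groups did not overlap. Zip89B fell by 0.43 in Ase+m3 (SE 0.11, adjusted p = 0.0471 in limma), which makes 1 of 9 genes called where 2.31% of all probe sets were called, 0.570% of them lower. The call was lost in 24 of 31 other settings (adjusted p between 0.0337 and 1), among them the removal of any 1 GFP array, though the sign stayed negative in each. Zip89B was lowest in Ac+Sens and Ase+m3. It was at 6.28, 6.50 and 6.63 in Ac+Sens, below every GFP array, with a difference of −0.41 (SE 0.10, adjusted p = 0.0653). In Ase, at 6.69, 6.73 and 6.76, all 3 arrays also lay under the GFP arrays, but the difference was −0.15 (SE 0.10, adjusted p = 0.505).

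The gene foi (fear of intimacy), a plasma membrane importer needed for gonad and tracheal morphogenesis, had its highest levels in Ac+Sens. Its level was 8.16, 8.26 and 8.31 in Ac+Sens, against 7.94, 7.63 and 7.99 in GFP. The groups did not overlap, and the difference of 0.39 (SE 0.10, adjusted p = 0.0802) missed the threshold. In Ase+m3 foi was at 7.87 and 7.67, against 7.94, 7.90 and 8.07 in Ase and 8.15, 8.05 and 8.13 in m3. The Ase+m3 arrays were below all arrays of either single factor, with a difference of −0.34 from m3 (SE 0.11, adjusted p = 0.0635) and of −0.20 from Ase (SE 0.11, adjusted p = 0.261). The GFP values of foi include one low array, GFP replicate 2. Without it the Ac+Sens difference was 0.28 (adjusted p = 0.285). Also without it, foi passed the test in Ase+m3 against m3 (−0.34, adjusted p = 0.0432), where 6.07% of all probe sets did.

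None of the remaining ZIP genes passed the test in any comparison with all arrays. Catsup, a carrier of the secretory pathway that also restrains catecholamine synthesis, was at 9.86, 9.86 and 9.79 in Ase and 9.7316, 9.7291 and 9.9996 in Ac+Sens, against 9.84, 9.78 and 9.92 in GFP, and the groups overlapped. In Ase+m3 the Catsup arrays disagreed, at 9.74 and 10.29, and the second is the array least like the others. Without Ase+m3 replicate 1, the Catsup difference of Ase+m3 was 0.44 from GFP, 0.45 from Ase and 0.38 from m3. Those values rest on that array alone. Zip99C, which moves iron into the secretory pathway, was at 7.52, 7.47 and 7.48 in Ase, against 7.34, 7.11 and 7.22 in GFP, a difference of 0.27 (SE 0.11, adjusted p = 0.292) between groups that did not overlap. Zip88E, whose gene overlaps Cp190, stayed between 6.22 and 6.60 on all 19 arrays. Its widest difference was between Ac+Sens (6.23, 6.29 and 6.28) and Ac (6.59 and 6.60), at −0.33 (SE 0.09, adjusted p = 0.213).

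Of the ZnT genes, ZnT86D, a carrier of the Golgi, was highest in Ac+Sens. Its level was 8.50, 8.32 and 8.39 in Ac+Sens, against 8.04 and 8.19 in Ac, 7.97, 8.14 and 8.14 in Sens, and 7.92, 8.00 and 8.16 in GFP. All 3 Ac+Sens arrays were above every array of these groups. The difference was 0.38 from GFP (SE 0.09, adjusted p = 0.0653), 0.29 from Ac (SE 0.10, adjusted p = 0.298) and 0.32 from Sens (SE 0.09, adjusted p = 0.316), and none passed. The difference from Sens was 0.27 (adjusted p = 0.872) without the array labelled Sens replicate 1. ZnT63C, the exporter that passes zinc from gut cells to the body, was at 8.24, 8.33 and 8.23 in Ase and 8.09, 8.36 and 8.25 in m3, above the GFP arrays at 7.96, 8.06 and 8.07. The difference from GFP was 0.24 in Ase (SE 0.12, adjusted p = 0.393) and 0.20 in m3 (SE 0.12, adjusted p = 0.539). In Ase+m3 the ZnT63C arrays were apart, at 8.14 and 7.65, and the interaction, the Ase+m3 difference from Ase less the m3 difference from GFP, was −0.57 (SE 0.18, adjusted p = 0.0746). It was −0.82 without Ase+m3 replicate 1, which leaves 1 array in that group.

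For the pairs set against single factors and for the other groups the counts were as low. In Ac and in Sens 0 of 9 transporter genes were called, where 0.218% and 0.277% of probe sets were, with 1 gene at an unadjusted p under 0.05 in either, and in m3 0 of 9 where 0.341% were, also with 1. Of all 11982 genes, 645, 983 and 1444 had an unadjusted p under 0.05 in Ac, Sens and m3. Ac+Sens had 0 of 9 called against Ac (0.0799% of probe sets) and against Sens (0.0533%), with 2 genes at an unadjusted p under 0.05 in each. Among all 11982 genes, 1086 and 817 had such an unadjusted p. The counts of Sens against GFP, of Ac+Sens against Sens and of the interaction of Ac and Sens were also 0 without the array labelled Sens replicate 1. Ase+m3 had 0 of 9 called against Ase (5.60% of probe sets) and against m3 (6.56%), with 2 and 3 genes at an unadjusted p under 0.05. Among all 11982 genes, 3413 and 3618 had such an unadjusted p. The interaction of Ac and Sens gave 0 of 9 (0.0426%) and that of Ase and m3 gave 0 of 9 (3.95%), with 1 and 2 genes at an unadjusted p under 0.05. For these interactions 685 and 3470 of all 11982 genes had such an unadjusted p. The moderated F of limma, which asks whether a gene differs from GFP in any group, called 0 of 9 where 3.62% of probe sets were called, and its lowest adjusted p were 0.0763 (Zip89B) and 0.0813 (foi). These comparisons share arrays, among them the GFP arrays. Arrays of Ase and GFP did not overlap for 3 of the 9 genes, where this held for 35.2% of all genes, and arrays of Ac+Sens and GFP did not overlap for 3 of 9, against 23.6% of all genes.

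ZnT35C and Zip71B, which work in zinc excretion by the Malpighian tubules, had wide spreads within groups and no call. ZnT35C was at 5.41 and 5.06 in Ase+m3, against 3.40, 8.03 and 3.41 in GFP, and GFP replicate 2 had by far the highest value of all 19 arrays. The m3 arrays were at 3.42, 3.77 and 5.95, and the Ac, Sens, Ac+Sens and Ase arrays lay between 3.16 and 4.50. The Ase+m3 difference from GFP was 0.29 (SE 1.02, adjusted p = 0.879), or 1.83 (SE 0.61, adjusted p = 0.101) without GFP replicate 2. For Ase the ZnT35C difference was −1.06 (SE 0.92, adjusted p = 0.638), but 0.48 (adjusted p = 0.840) without that array, so its sign turned on GFP replicate 2. Zip71B, measured on 15 arrays and overlapping mRpL39, was at 4.005 and 3.953 in Ase+m3, against 3.55, 5.39 and 3.15 in GFP, and again GFP replicate 2 was highest.

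The metallothionein genes were high on GFP replicate 2 too, and on some of the other arrays with a high ZnT35C level. MtnA was at 11.61 and 11.63 in Ase+m3, against 7.54, 12.82 and 7.38 in GFP. MtnC was at 7.29 and 4.37 in Ase+m3, against 3.59, 6.94 and 3.60 in GFP, and MtnD at 8.998 and 5.929 in Ase+m3, against 4.89, 9.01 and 4.12 in GFP. GFP replicate 2 was far above the other GFP arrays for each of these genes, as it was for ZnT35C. The m3 array with the highest ZnT35C level, replicate 3, also had MtnA at 10.84, against 8.50 and 9.13 on the other m3 arrays. MtnA was also at 10.62 on Ase replicate 1 and 10.13 on Sens replicate 2. On Ase+m3 replicate 2 MtnC was lower than on m3 replicate 3 (4.50) and Ase replicate 1 (4.46), and MtnD lower than on Ase replicate 1 (6.08). MtnB alone separated Ase+m3 from Ase, m3 and GFP, at 7.54 and 7.38 in Ase+m3, against 4.97, 3.90 and 4.09 in Ase, 4.45 and 5.77 in m3, and 3.45, 5.73 and 3.65 in GFP. MtnB rose by 3.18 in Ase+m3 against GFP (SE 0.58, adjusted p = 0.0197), by 3.14 against Ase (SE 0.58, adjusted p = 0.0220) and by 2.35 against m3 (SE 0.64, adjusted p = 0.0479). These calls held in 22 of 29, 21 of 29 and 4 of 29 other settings. Zip102B did not share this pattern, since it was at 7.69 on GFP replicate 2, against 7.81 on both other GFP arrays.

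**Figure D3:**
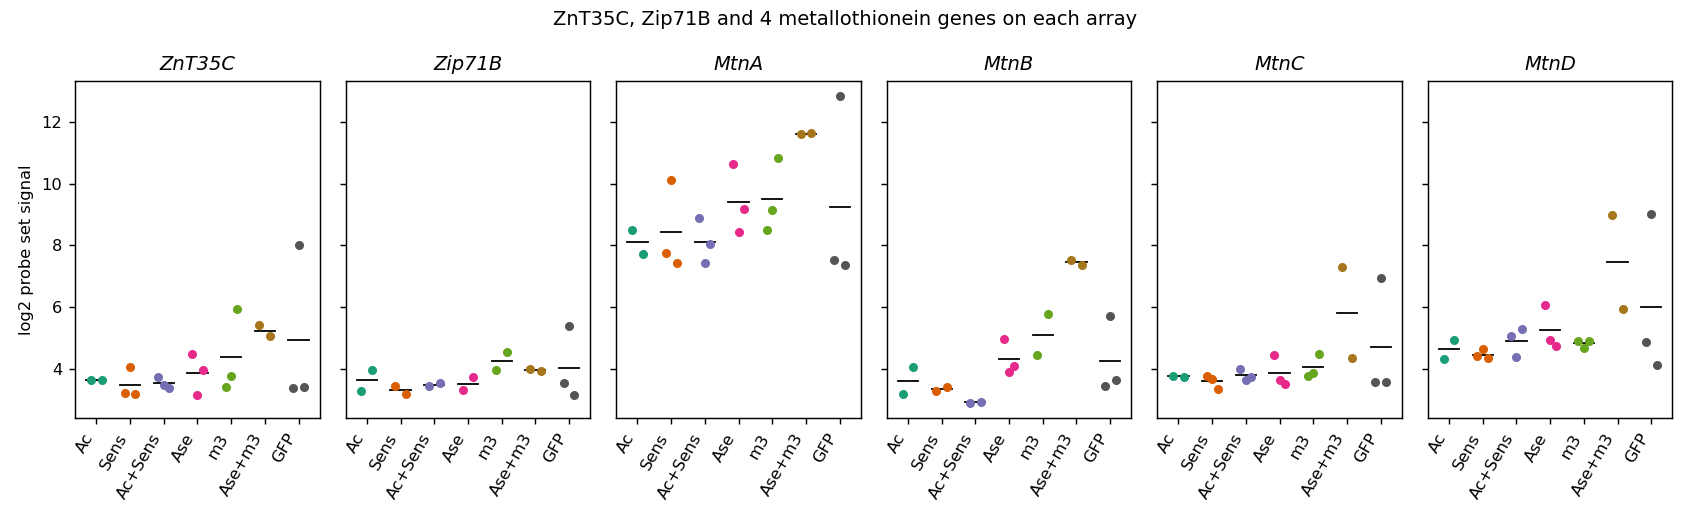
Level of ZnT35C, Zip71B and the metallothionein genes MtnA, MtnB, MtnC and MtnD on every array (log2 probe set signal, vertical axis) by group (horizontal axis); each point is 1 array and each bar the group mean, and Zip71B and MtnB have no value on some arrays. One GFP array, replicate 2, is the highest GFP array in every panel, at 8.03 for ZnT35C and 12.82 for MtnA.

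Of 23 other genes listed for zinc, copper and iron handling, 20 had a probe set of their own. Against GFP, 0 of the 20 were called in Ac, Sens, Ac+Sens, Ase and m3, with 1, 1, 3, 0 and 2 genes at an unadjusted p under 0.05. Of all 11982 genes, 645, 983, 1454, 1786 and 1444 had such an unadjusted p in Ac, Sens, Ac+Sens, Ase and m3. In Ase+m3, 1 of the 20, MtnB, was called. Over all probe sets the shares called were 0.218%, 0.277%, 0.773%, 1.24% and 0.341% in those groups and 2.31% in Ase+m3. Their median difference from GFP was 0.09 in Ase, like that of all genes at 0.09, and −0.06 in Ac+Sens, against 0.00 for all genes. Ase+m3 had 2 of 20 called against Ase and the same number against m3, MtnB being higher and MTF-1 lower in each, where 5.60% and 6.56% of probe sets were called. MTF-1 was at 7.51 and 6.02 in Ase+m3, against 7.77, 7.65 and 7.94 in Ase, 7.83, 7.76 and 8.08 in m3, and 7.82, 7.78 and 7.61 in GFP. It fell by 1.03 against Ase (SE 0.29, adjusted p = 0.0487) and by 1.13 against m3 (SE 0.29, adjusted p = 0.0389). Without Ase+m3 replicate 2, which has the low value, the MTF-1 differences were −0.28 (adjusted p = 0.460) and −0.38 (adjusted p = 0.258). The further ZnT genes ZnT33D, at 3.13 to 3.72, and ZnT77C, at 3.40 to 4.09, were measured on 15 arrays and had no call.

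Rad23 and Rnf11, the genes next to Zip102B on chromosome 4, did not share its loss. Rad23, a DNA repair and proteasome factor on one side, was at 10.72, 10.79 and 10.71 in Ase and 10.65, 10.69 and 10.74 in Ac+Sens, against 10.78, 10.75 and 10.71 in GFP. Its group means spanned 0.07. Rnf11, a RING finger gene on the other side, was at 6.93, 6.78 and 6.99 in Ase and 7.004, 7.57 and 7.81 in Ac+Sens, against 7.60, 7.39 and 6.86 in GFP, with overlap between the groups on this probe set. Rnf11 was low in m3 instead, at 5.34, 4.89 and 6.08, and at 6.79 and 4.80 in Ase+m3. Those differences from GFP, −1.85 (SE 0.42, adjusted p = 0.0866) and −1.49 (SE 0.47, adjusted p = 0.0910), missed the threshold, while the F over all groups passed (adjusted p = 0.0414). The next genes outwards were dpr7, RhoGAP102A, NfI and Syt7 on the Rad23 side and PMCA, Hcf, dati and Taf3 on the Rnf11 side. RhoGAP102A, Hcf and dati, at 2.68 to 3.64 on the GFP arrays, had little room for a loss like that of Zip102B. For dpr7, NfI and Syt7, at 3.75 to 5.07 on the GFP arrays, there was room for only part of such a loss. With 1 probe set each, none of the 10 neighbours was called in any of the 12 comparisons, in which 0.0426% to 6.56% of probe sets were called, so that few calls among 10 genes would be seen at that background. A second probe set of PMCA was called lower in Ase+m3 against Ase (−0.62, adjusted p = 0.0381), where 5.60% of all probe sets were called. It was at 7.65 and 6.92 in Ase+m3, against 7.88, 7.94 and 7.91 in Ase. The lower value is that of Ase+m3 replicate 2, the array least like the others. On a second, dimmer probe set of Rnf11, the Ase arrays (5.49, 5.32 and 6.02) lay above the GFP arrays (4.60, 5.20 and 4.38). The Ac+Sens arrays with a value there (4.17 and 3.83) lay below the GFP arrays.

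**Figure D4:**
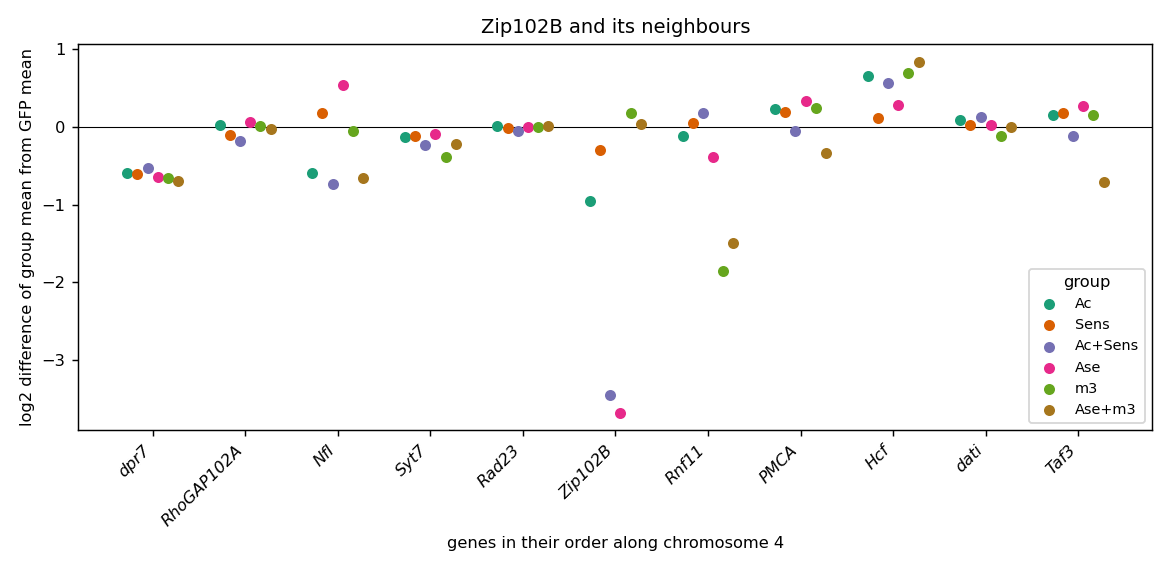
Log2 difference of each group mean from the GFP mean (vertical axis) for Zip102B and 5 genes with a probe set on either side, in their order along chromosome 4 (horizontal axis); colours are the 6 groups. Zip102B is at −3.45 in Ac+Sens and −3.67 in Ase, and no neighbour is below −1 in those groups. The dim neighbours, among them RhoGAP102A, Hcf and dati, had little room to fall.

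The genes with the most similar pattern were sought among 749 genes whose group means spanned at least 1 on the log2 scale, by Pearson correlation with Zip102B over the 7 group means. The measure describes likeness only, as the Zip102B levels fall into a low and a high cluster. The 5 highest were Nepl8 (0.946), a neprilysin-like peptidase gene, CG14285 (0.921), CG15152 (0.886), dyw (0.809) and Drsl5 (0.764), of the drosomycin-like antifungal peptides. Over single arrays 3 of these 5 were again among the 5 highest. Their changes were smaller than that of Zip102B. Nepl8, at 4.42 to 4.67 on the GFP arrays, and CG15152, at 3.44, 4.89 and 3.01 there, had little room for a loss as large. The lowest GFP value of CG15152 was below its Ase arrays, at 3.27 and 3.20. Nepl8 was at 3.60 and 3.80 in Ase and 3.76 and 3.69 in Ac+Sens, against 4.67, 4.62 and 4.42 in GFP, with no overlap. CG14285 was at 6.83, 6.78 and 6.45 in Ase and 6.76, 7.29 and 7.21 in Ac+Sens, against 7.53, 7.93 and 7.66 in GFP, also with no overlap.

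The most opposite patterns were those of CdGAPr (−0.868), E(spl)m4-BFM (−0.867), a Bearded family gene, and E(spl)m5-HLH (−0.864), which encodes a repressor made in response to Notch signalling. Over single arrays 1 of these 3, E(spl)m4-BFM, was again among the 3 lowest, the lowest was the precursor marker spdo (−0.818), and CdGAPr had −0.716. CdGAPr was at 6.03, 6.17 and 6.14 in Ase and 6.41, 6.28 and 6.32 in Ac+Sens, against 3.91, 3.70 and 4.18 in GFP. It was also high on 2 Sens arrays, at 5.96 and 6.08, where Zip102B was at 7.91 and 7.93, so the 2 genes parted there. On the array labelled Sens replicate 1, CdGAPr was at 3.74. E(spl)m4-BFM was at 8.47 on that array, against 6.78 and 6.46 on the other Sens arrays. All these correlations include that array and are not given without it. E(spl)m4-BFM was at 8.19, 8.48 and 8.72 in Ase and 8.15, 8.04 and 9.87 in Ac+Sens, against 6.83, 6.39 and 6.31 in GFP. In Ase+m3 it was at 6.32 and 8.10, and the high second array was not matched by a low Zip102B level, which was 7.68 there.

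**Figure D5:**
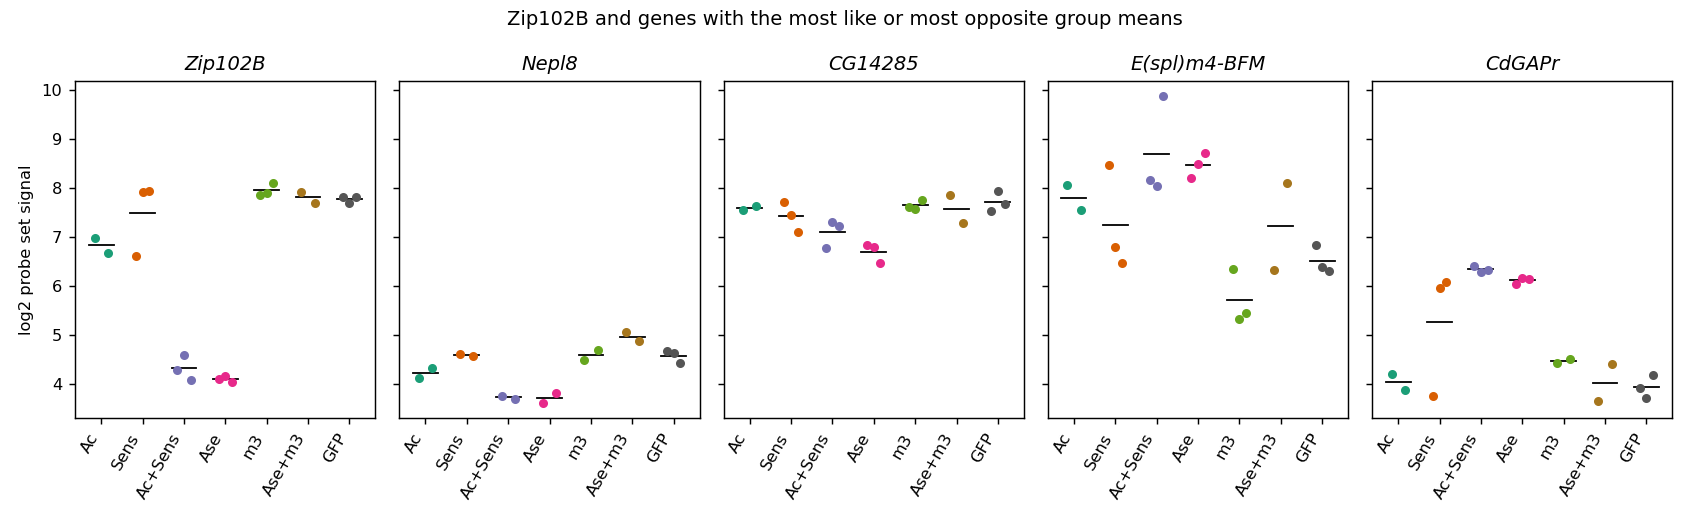
Level of Zip102B, of Nepl8 and CG14285, which had the most similar group means, and of E(spl)m4-BFM and CdGAPr, which had the most opposite ones, on every array (log2 probe set signal, vertical axis) by group (horizontal axis); each point is 1 array and each bar the group mean. Zip102B spans from about 4 to about 8, while Nepl8 and CG14285 move by about 1 in the same groups.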

How the data were processed

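Biotinylated cDNA from 500 ng of total RNA was hybridised to Affymetrix arrays, per the labels' protocols. The authors deposited log2 signals per probe set, computed with RMA per the submitters' processing notes (version not given in the sources used here). Gene symbols came from the platform annotation, and all 10 members matched the RefSeq gene table by identifier. Each gene stands for its probe set of highest mean over the 15 arrays without zeros. Probe set names ending in s_at (Zip99C, ZnT63C) may also match other transcripts, and not every overlap between genes is reported here.

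The tests used limma 3.58.1 (R 4.3.3), with 1 mean for each of the 7 groups over all 19 arrays, in 12 comparisons. P-values are two-sided and adjusted over 18769 probe sets after Benjamini and Hochberg; a gene was called at an adjusted p under 0.05. They set each difference against the spread between arrays of the same group, with 1 spread per probe set shared over all 7 groups. Intervals are 95% intervals of limma, not adjusted. The model was tested on simulated data. No pair of arrays shared more than 10 identical values.

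The members and all gene lists were chosen with earlier results of these data known. Genes named are the members, the 5 nearest genes with a probe set on each side of Zip102B, the 5 most and 3 least similar genes, and listed metal genes that were called (with MTF-1, ZnT33D and ZnT77C in any case); MtnA, MtnC and MtnD were added after their values were seen. Alternatives comprised normalization, filters, array weights, a replicate block, the groups in the fit and leaving out arrays; 4 were added after seeing the data.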

Additional observations from a re-analysis of the deposited data

How the results depend on the processing

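Counts of the 9 transporter genes called were 0 in all comparisons but Ase+m3 against GFP, where the count was 1. That 1 became 0 with the replicate block, both quantile normalizations, median centring, only probe sets of mean 5 or more, only those measured on all arrays, the arrays with zeros left out, both kinds of array weights, only the compared groups in the fit, and GFP replicate 2 and Ase+m3 replicate 2 both left out. Whether the same replicate numbers pair the arrays was not settled. Of 52 same-numbered pairs, 15 correlated above 0.1 in their deviations from group means, and 8 of 19 arrays matched best with their own number. The median correlation was −0.003 for same-numbered and 0.007 for differently numbered pairs. However, every array with zeros was replicate 3 of its group, although GFP replicate 3 had no zeros. The block changed no other count of transporters. With it the MtnB calls in Ase+m3 were lost against GFP (adjusted p = 0.0510) and m3 (0.0583), and those of MTF-1 against Ase (0.0672) and m3 (0.0570). In the following counts, percentages in brackets are the shares of all probe sets of that setting called at an adjusted p under 0.05. In Ac+Sens against GFP the count was 1 with median centring (foi, 0.773%) and with the gene length trend removed (Zip89B, 0.874%), and 3 at an adjusted p under 0.1. In Ase+m3 against Ase it was 1 with median centring (22.9%). In Ase+m3 against m3 it was 2 with probe sets measured on all arrays (15.9%) or at an adjusted p under 0.1. In the interaction of Ase and m3 it was 2 with probe sets of mean 5 or more (15.7%), with those measured on all arrays (18.5%) or at that threshold. The F count was 1 with median centring (11.2%) and 2 at that threshold. The cause of these changes was not tested, and the looser threshold admits more by construction.

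Weighting arrays added calls in the comparisons that follow, among the transporters and among all probe sets (shares in brackets). With limma's default array weights, which stopped before converging and gave Ac+Sens replicate 2 a weight of 27.6, counts were 5 in Ac+Sens against GFP (38.9% of all probe sets called), 3 in Ase (18.8%), 1 in m3 (9.04%), 3 in Ac+Sens against Ac (22.9%), 3 against Sens (24.8%) and 6 by F (52.8%). The gene-by-gene weights, added because of this after seeing the data, gave 3 in Ac+Sens against GFP (8.39%), 1 in Ase (14.2%), 1 in Ac+Sens against Ac (4.92%) and 3 by F (25.6%). Under the default weights, differences called in Ase were 0.27 for ZnT63C, 0.22 for ZnT86D and −0.21 for Zip89B.

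Leaving out single arrays gave counts of 0 to 2 in Ac+Sens against GFP, 0 to 1 in Ase+m3 against GFP, 0 to 2 in Ase+m3 against Ase, 0 to 3 in Ase+m3 against m3, 0 to 2 in the interaction of Ase and m3 and 0 to 3 by F, and 0 in every other comparison. Without Ase+m3 replicate 1, which leaves the array least like the others as the only one of its group and assumes that it varies like the others, Catsup, ZnT63C and foi supplied the calls against m3.

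Quantile normalization with the zeros as missing spreads the measured probe sets of the 4 arrays with zeros over the whole range by construction, and moved the median of all genes by −0.40 in Ase and m3, −0.37 in Sens and −0.33 in Ac+Sens against GFP. Under it Zip102B was at −1.17 in m3 against GFP, and MTF-1 was at 0.57 in Ase+m3 against Ase and 0.47 against m3. A quantile mapping learnt on probe sets measured on all arrays was therefore added after seeing the data, and it moved that median by 0.13 in Ase+m3 against GFP and by −0.10 in Ase. Median centring moved it by −0.11 in Ase, −0.10 in m3 and 0.10 in Ase+m3. Leaving sens and sc out of the precursor sum, added after seeing the data, turned the Ase mean from below to above Ac (0.17) and Sens (0.12). Over all settings the Zip102B difference stayed between −3.96 and −3.65 in Ase and between −3.71 and −3.21 in Ac+Sens.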
